A study of Mus musculus with 8 samples.

Results

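The collagen genes of the mouse were followed in isolated hepatocytes, the chief working cells of the liver, from wild-type mice and from mice lacking Taf2 in hepatocytes. The members were all genes whose symbol is Col, a type number, the letter a and a chain number, with Col14a1 left out, which gave 43 of the 24411 genes in the table. Of these 43, 20 passed a filter on low counts and were tested. Each genotype had 4 RNA sequencing libraries (wild type, genotype label WT, against a hepatocyte-specific conditional knockout of Taf2, genotype label TAF2 KO), all from isolated cells harvested 2 days after plating. The sources used here do not give the driver of the deletion, the strain, age and sex of the mice or the number of animals behind each library, so p-values measure the spread between these libraries, which may be technical. Taf2 encodes a subunit of TFIID, a general transcription factor that recognises promoters of genes read by RNA polymerase II.

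Collagens are triple-helical proteins of the extracellular matrix, each made of chains that come from separate genes. Fibrillar collagens (types I, III and V among others) form fibrils, type IV forms the sheet of basement membranes, type VI forms beaded microfilaments, and FACIT collagens attach to the surface of fibrils. In the liver, fibrillar collagens are known as products of hepatic stellate cells and fibroblasts, and the multiplexin Col18a1, whose protein releases the fragment endostatin, is known as a strong hepatocyte gene.

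Library totals ran from 18947060 to 23933585 counts, the libraries detected 14246 to 14436 genes in the wild type and 14714 to 14855 in the knockout, and Taf2 was at 42.1 to 46.4 CPM (counts scaled to a library total of 1000000) in the wild-type libraries and 12.7 to 15.7 CPM in the knockout libraries, so that every library matched its label. The 13 hepatocyte markers in the table had a joint level between 74463 and 79083 CPM in the wild type and between 89947 and 97306 CPM in the knockout, which fits the labelled cell type. Changes were tested with edgeR's quasi-likelihood test on all 12122 genes that passed the filter, with Benjamini-Hochberg adjustment over all of them and a threshold of 0.05. Over all genes 61.4% were called, 30.2% as higher and 31.2% as lower in the knockout, with a median log2 fold change of -0.0035.

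The collagen genes changed in 2 opposite ways. Type IV collagen, the basement membrane network and one of the abundant collagens of these cultures, fell most among the abundant collagens and Col18a1 fell to a smaller extent, while Col12a1 and most tested collagens of low abundance rose. Of 20 tested members 14 were called higher and 4 lower, and 2 were not called, and the median log2 fold change of the 20 was 1.04. Of the 20 tested members, the 18 called ones did not overlap between genotypes, 14 with the knockout libraries higher and 4 with them lower. Over all tested genes, called or not, the shares without overlap were 26.9% in the higher direction and 27.8% in the lower. Calls and overlap rest on the same values, so the lack of overlap is no separate evidence. All 18 kept their call and their direction under RLE, upper-quartile and library-total scaling, with DESeq2, with limma-voom and when any single library was left out.

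The filter limits how these counts can be read. Only 9 members reached the filter's level (0.472 CPM before TMM scaling) in all 4 libraries of each genotype. Of these 5 were higher (Col3a1, Col11a2, Col12a1, Col15a1 and Col27a1), 3 lower (Col4a1, Col4a2 and Col18a1) and 1 not called (Col5a3). Over all tested genes 30.2% were higher and 31.2% lower. Another 9 members reached the filter's level in all libraries of the knockout but not of the wild type. All 9 were higher, as were 85.8% of the 458 genes of the table that passed in this way. Such genes missed the level in at least 1 wild-type library and reached it in all knockout libraries, which favours a rise without requiring it. Their number therefore says nothing about collagens as a group. The 9 were all higher, so they also raise the median log2 fold change of 1.04 over the 20 tested members.

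**Figure D1:**
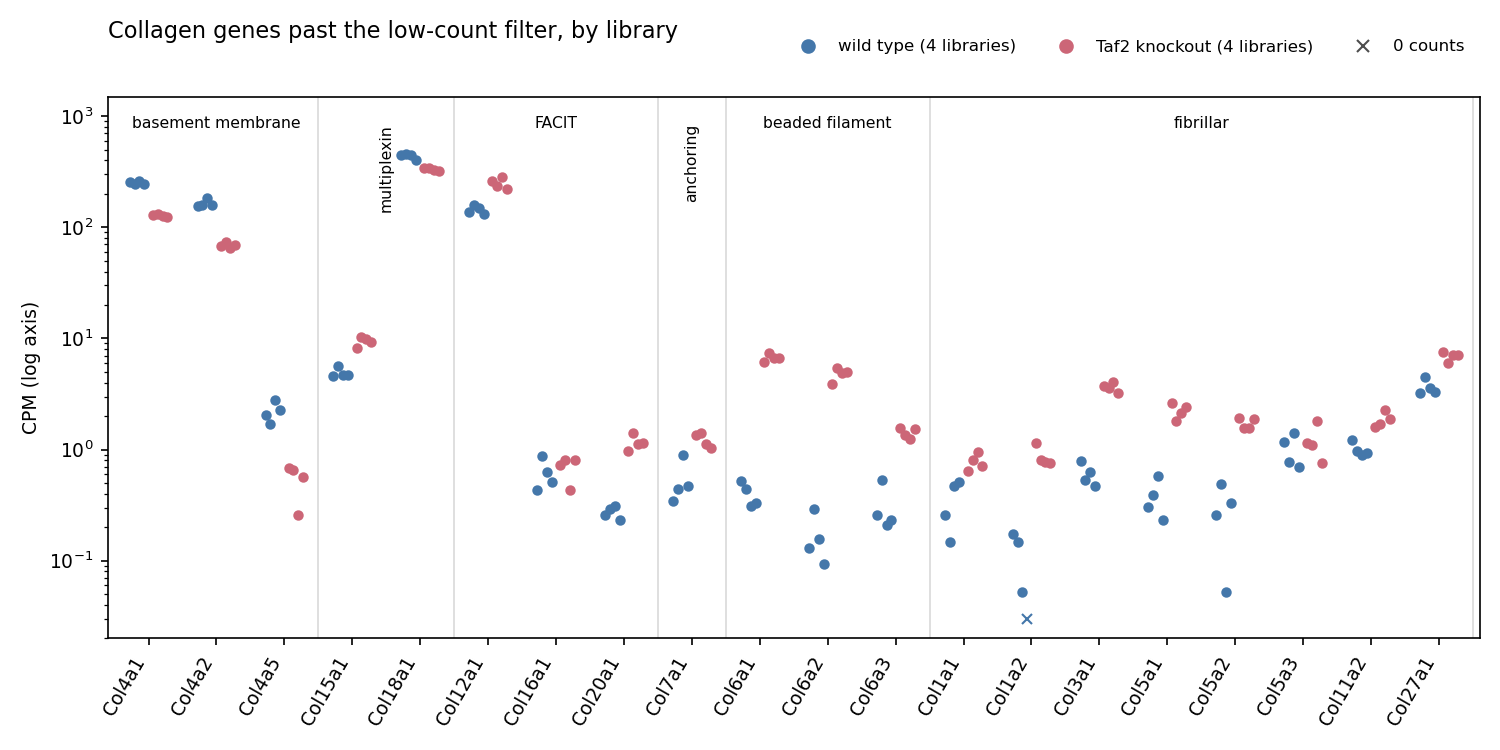
Level of each tested collagen gene in each library, in CPM on a log axis, grouped by structural class (points, 4 wild-type and 4 knockout libraries per gene, with a cross for a library with 0 counts). Col4a1, Col4a2, Col12a1 and Col18a1 stood at 64.9 CPM or more in every library, while the other 16 genes stayed at 10.4 CPM or less and most of them were higher in the knockout.

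Upstream sequences are shown for 5 of the low-abundance members, the 4 with rises of over 2 on the log2 scale whose upstream bases overlap no annotated exon, and Col5a3, a type V chain that was not called. Each is the 100 bases before the RefSeq start on build GRCm38.p6 (mm10), from 5′ to 3′ on the gene's strand, and capitals mark GGGCGG or its reverse complement CCGCCC, the core of the Sp1 site.
Col3a1 (chr1:45311438-45311537, plus strand): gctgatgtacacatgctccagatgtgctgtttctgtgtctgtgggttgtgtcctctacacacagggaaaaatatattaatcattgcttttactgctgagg
Col5a1 (chr2:27886325-27886424, plus strand): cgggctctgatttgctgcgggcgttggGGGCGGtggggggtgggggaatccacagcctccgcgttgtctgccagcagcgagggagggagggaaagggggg
Col5a3 (chr9:20815068-20815167, minus strand): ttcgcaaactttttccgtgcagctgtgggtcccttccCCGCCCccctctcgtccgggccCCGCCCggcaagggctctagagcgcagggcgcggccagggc
Col6a2 (chr10:76623631-76623730, minus strand): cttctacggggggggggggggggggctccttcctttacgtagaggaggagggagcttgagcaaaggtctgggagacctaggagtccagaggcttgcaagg
Col6a3 (chr1:90843972-90844071, minus strand): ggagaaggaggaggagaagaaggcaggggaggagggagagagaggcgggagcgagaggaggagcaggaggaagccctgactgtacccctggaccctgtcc
Among these sequences the capitals stand in Col5a1, which rose, and at 2 places in Col5a3, which was not called. Col6a2 has another start, inside the gene, whose upstream bases also hold the motif. RefSeq promoters were found for 17 of the 20 tested members, with 19 starts, and 9 of the 19 windows held GGGCGG on either strand, against 24.7% of 32851 promoters of the same length. The median GC content was 67.0% in the 19 windows and 55.0% in all promoters, and its part in the match rate was not tested. The letters TATAAA, the usual form of the TATA box, were in 0 of the 19 windows and in 5.56% of all promoters, and CCAAT was in 1 window, that of Col4a2, and in 18.9% of all. The search took both strands with no mismatch, and no motif contains another, so a match or its absence describes only these windows.

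Type IV collagen fell. Its common form has a pair of chains from Col4a1 and a single one from Col4a2. Col4a1 stood at 257, 247, 262 and 245 CPM in wild-type libraries 1 to 4 and at 128, 133, 126 and 125 CPM in knockout libraries 1 to 4 (log2 fold change -0.98, SE 0.0365; edgeR adjusted p = 1.03e-14). Col4a2 stood at 157, 159, 184 and 158 CPM in the wild type and at 67.5, 74.0, 64.9 and 70.0 CPM in the knockout (log2 fold change -1.25, SE 0.0508; edgeR adjusted p = 3.56e-14). Both genes lay far apart between the genotypes, with means in the knockout of 50.6% and 42.0% of the wild type. The X-linked chain gene Col4a5 was a low-abundance gene that moved the same way, at 2.04, 1.70, 2.82 and 2.25 CPM in the wild type and 0.677, 0.649, 0.259 and 0.568 CPM in the knockout (log2 fold change -2.02, SE 0.250; edgeR adjusted p = 7.01e-07). Its counts were 35 to 54 per wild-type library and 6 to 16 per knockout library, so Col4a5 reached the filter's level in all wild-type libraries but not in all knockout libraries. The other 3 chain genes of this type were near the detection limit, with 0 counts in all libraries for Col4a3, 1 count in the wild type and 3 in the knockout for Col4a4, and 3 and 0 for Col4a6.

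Col4a1 and Col4a2 lie head to head on chromosome 8, with Col4a1 from 11198423 to 11312826 on the minus strand and Col4a2 from 11312805 to 11449287 on the plus strand (build mm10), so their annotated first bases overlap by 22 bases. Without a stated strand setting, reads from those bases cannot be told apart, and the rest of each gene is its own. The pair fell together, and Col4a2 fell further. The ratio of Col4a1 to Col4a2 counts was 1.64, 1.56, 1.43 and 1.55 in the wild-type libraries and 1.90, 1.80, 1.94 and 1.78 in the knockout libraries, and the groups did not overlap. Per kilobase of transcript the ratio was 1.50 ± 0.0853 in the wild type and 1.81 ± 0.0766 in the knockout (SD, n = 4 each). The difference was 0.27 on the log2 scale (two-sided exact permutation test, p = 0.0286, the smallest this design allows, and 0.0571 after adjustment over the 2 ratios tested). It therefore did not pass the threshold after adjustment, although all 4 knockout ratios were above all 4 wild-type ratios. This ratio is taken within a library and does not depend on the scaling.

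**Figure D2:**
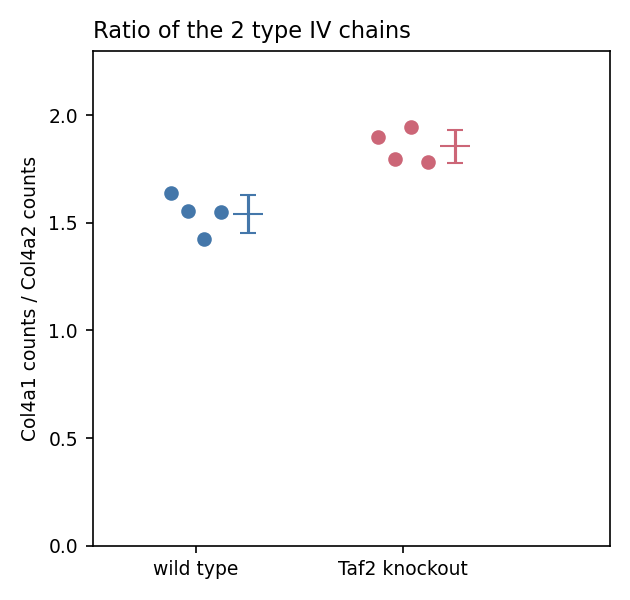
Ratio of Col4a1 to Col4a2 counts in each library (points) with the mean and SD of 4 libraries per genotype beside them. The wild-type ratios lay between 1.43 and 1.64 and the knockout ratios between 1.78 and 1.94.

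Genes for proteins that sit with type IV collagen in basement membranes moved in both directions. Of 16 tested genes for laminins, nidogens, perlecan, agrin and others, 5 rose and 8 fell, and the median was -0.069 on the log2 scale, beside 30.2% higher and 31.2% lower over all genes. Nid1, which encodes nidogen, a linker of laminin and type IV collagen, was the most abundant and fell from 868 ± 54.4 to 685 ± 46.4 CPM (log2 fold change -0.34, SE 0.0481; edgeR adjusted p = 4.01e-06). Lamb3, a laminin chain gene, went from 10.1 ± 0.635 to 2.97 ± 0.0987 CPM (log2 fold change -1.75, SE 0.0938). Sparc, which encodes a matrix protein that binds collagen, rose by 2.02 (SE 0.0926).

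Both multiplexins, which are proteoglycan collagens of basement membrane zones, were called, in opposite directions. Col18a1 was the most abundant collagen gene per transcript length in both genotypes, at 86.6 ± 5.02 CPM per kilobase in the wild type and 65.3 ± 2.03 in the knockout (SD, n = 4 each). Its level was 447, 459, 446 and 401 CPM in the wild-type libraries and 339.5, 339, 326 and 318 CPM in the knockout libraries (log2 fold change -0.41, SE 0.0411; edgeR adjusted p = 4.34e-08). Its lowest wild-type library was well above the highest knockout library. The gene has several starts, and the deposited value sums over its transcripts. Col15a1 was at 4.60, 5.68, 4.70 and 4.73 CPM in the wild type and 8.21, 10.4, 9.89 and 9.23 CPM in the knockout (log2 fold change 0.93, SE 0.0988; edgeR adjusted p = 8.04e-08), with 90 counts or more in every library.

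Among the FACIT collagens 2 of 3 tested genes were higher, beside 30.2% of all tested genes. Of these 2, Col20a1 passed the filter through the knockout libraries alone, where 85.8% of all such genes were higher. Col12a1, whose protein lies on the surface of type I fibrils, was the one abundant collagen gene that rose. It stood at 137, 159, 148 and 132 CPM in the wild type and at 262, 235, 281 and 220.2 CPM in the knockout (log2 fold change 0.79, SE 0.0638; edgeR adjusted p = 1.36e-09). Col12a1 in the knockout libraries spread more widely (SD 27.0 CPM) than the wild-type libraries (SD 11.9 CPM), and the groups did not overlap. Per kilobase Col12a1 rose from 12.5 ± 1.04 to 21.7 ± 2.35, which put it below both main type IV chains in the wild type, and in the knockout above Col4a2 and beyond Col4a1 by less than its SD. Col20a1 had 5 or 6 counts in each wild-type library and 23 to 28 in each knockout library (log2 fold change 2.05, SE 0.279). Col16a1 overlapped between genotypes, at 0.434 to 0.875 CPM in the wild type and 0.432 to 0.805 CPM in the knockout (edgeR adjusted p = 0.643).

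These shifts changed the make-up of collagen transcripts. The joint level of all 43 genes was 1015, 1044, 1057 and 952 CPM in the wild-type libraries and 842, 828, 846 and 779.6 CPM in the knockout libraries, with no overlap. The 6 type IV genes held 41.3% ± 1.60 of that sum in the wild type and 24.0% ± 1.24 in the knockout, and Col12a1 held 14.1% ± 0.748 and 30.2% ± 2.36 (SD, n = 4 each). Col18a1 held 43.1% ± 1.06 and 40.2% ± 1.10. The other 35 genes held 1.51% ± 0.140 in the wild type and 5.60% ± 0.232 in the knockout, so rises of many fold among them were small in CPM. Sums in CPM weigh long transcripts more than short ones, and no test was made on them.

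**Figure D3:**
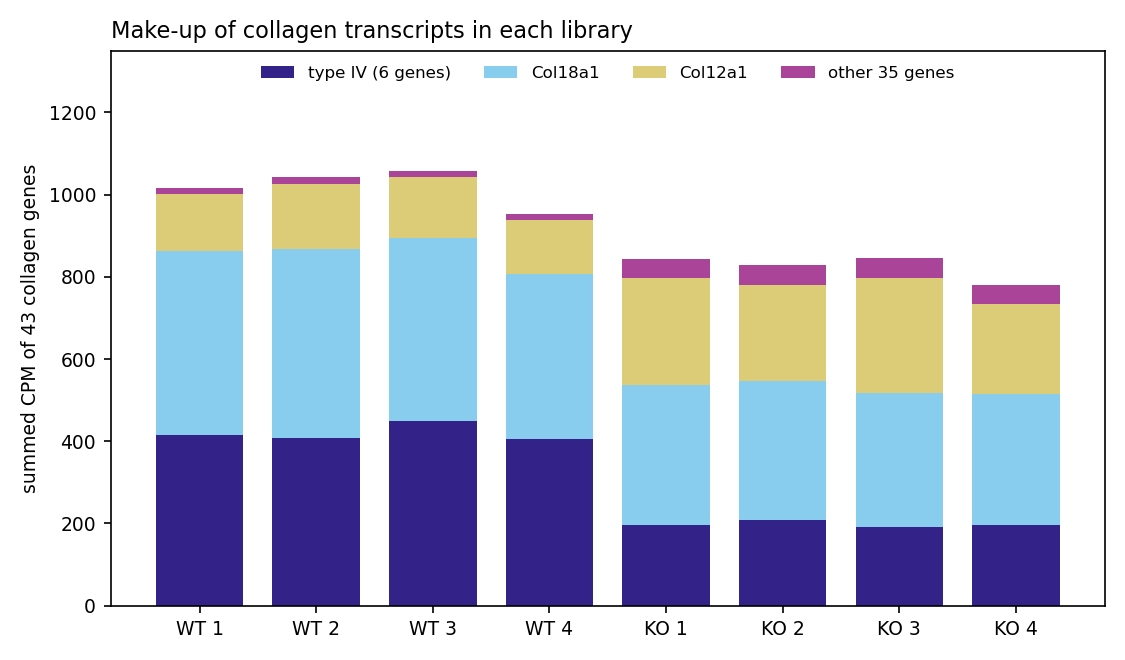
Summed CPM of the 43 collagen genes in each library, stacked as type IV (6 genes), Col18a1, Col12a1 and the other 35 genes. The type IV part shrank from between 405 and 448 CPM in the wild type to between 191 and 207 CPM in the knockout, and the Col12a1 part grew.

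The largest rises of all tested members were those of Col6a1 and Col6a2, chain genes of type VI collagen. Its protein is assembled from 1 chain each of Col6a1, Col6a2 and another chain such as that of Col6a3. All 3 genes passed the filter through the knockout libraries alone, where 85.8% of all such genes were higher. Col6a1 stood at 0.520, 0.437, 0.313 and 0.328 CPM in the wild type and at 6.13, 7.39, 6.65 and 6.68 CPM in the knockout (log2 fold change 4.03, SE 0.171; edgeR adjusted p = 7.09e-14). Col6a2 went from 0.130, 0.292, 0.157 and 0.0937 CPM to 3.85, 5.44, 4.84 and 5.02 CPM (log2 fold change 4.79, SE 0.249; edgeR adjusted p = 1.66e-12). Every knockout library of both genes was far above every wild-type library, although the wild-type values rest on 6 to 12 and 2 to 6 counts per library. Col6a3 rose less, from 0.260, 0.534, 0.209 and 0.234 CPM to 1.57, 1.35, 1.25 and 1.52 CPM (log2 fold change 2.18, SE 0.281; edgeR adjusted p = 1.22e-06). Per kilobase of transcript the 3 chains stood apart in the knockout, Col6a1 at 1.64 ± 0.126, Col6a2 at 1.21 ± 0.171 and Col6a3 at 0.141 ± 0.0144 CPM (SD, n = 4). In the wild type they were at 0.0975 ± 0.0238, 0.0425 ± 0.0219 and 0.0306 ± 0.0150, where Col6a2 and Col6a3 differed by less than their spread. The ratio of Col6a1 to Col6a2 counts was 1.41 ± 0.121 in the knockout. In the wild type it ran from 1.50 to 4.00 on few counts, and the genotypes did not differ past the threshold (two-sided exact permutation test, p = 0.0571, also 0.0571 adjusted over the 2 ratios, against a smallest possible p of 0.0286). Col6a1 and Col6a2 are neighbours on the same strand of chromosome 10, with 85161 bases between them. Of the alternatives to Col6a3, Col6a4 and Col6a5 had 0 counts in every library, and Col6a6 had 3 counts over all wild-type and 9 over all knockout libraries.

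Of 8 tested fibrillar collagen genes 7 rose and 0 fell, beside 30.2% higher and 31.2% lower over all tested genes. Among the 4 that passed the filter on each genotype alone, 3 rose (Col3a1, Col11a2 and Col27a1) and Col5a3 was not called. The other 4 passed through the knockout libraries alone, where 85.8% of all such genes were higher. Col3a1, the single chain gene of type III collagen, had the largest fibrillar level per kilobase among types I, III and V in the knockout (0.654 ± 0.0631). It stood at 0.781, 0.534, 0.626 and 0.468 CPM in the wild type and at 3.72, 3.55, 4.06 and 3.22 CPM in the knockout (log2 fold change 2.58, SE 0.184; edgeR adjusted p = 2.18e-10). Its neighbour on chromosome 1, Col5a2, lies tail to tail with it at a distance of 24614 bases and rose by the same amount, from 0.260, 0.486, 0.0522 and 0.328 CPM to 1.90, 1.55, 1.56 and 1.89 CPM (log2 fold change 2.58, SE 0.303; edgeR adjusted p = 3.51e-07). In both neighbours all 4 knockout libraries were above all 4 wild-type libraries.

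Type V collagen, which sets fibril diameter, is built from Col5a1 and Col5a2 chains, in some tissues with a Col5a3 chain. Col5a1 went from 0.304, 0.389, 0.574 and 0.234 CPM to 2.62, 1.80, 2.12 and 2.41 CPM (log2 fold change 2.59, SE 0.250; edgeR adjusted p = 2.17e-08). Per kilobase Col5a1 and Col5a2 were level in each genotype, at 0.0446 ± 0.0175 and 0.0425 ± 0.0271 CPM in the wild type and 0.266 ± 0.0428 and 0.260 ± 0.0302 CPM in the knockout. Col5a3 did not follow them. It stood at 1.17, 0.777, 1.41 and 0.702 CPM in the wild type and 1.14, 1.10, 1.81 and 0.758 CPM in the knockout (log2 fold change 0.26, SE 0.273; edgeR adjusted p = 0.419), and the groups overlapped. Col5a3 was the most abundant type V chain per kilobase in the wild type (0.166 ± 0.0545), and in the knockout (0.197 ± 0.0723) its range overlapped those of Col5a1 and Col5a2.

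Type I collagen, the main fibril protein of scar tissue, was scarce. Its usual form has a pair of Col1a1 chains and a single Col1a2 chain. Col1a1 had 6, 3, 9 and 11 counts in the wild-type libraries and 15, 16, 22 and 15 in the knockout libraries (0.348 ± 0.174 and 0.774 ± 0.136 CPM; log2 fold change 1.15, SE 0.335; edgeR adjusted p = 0.00561). Col1a2 had 4, 3, 1 and 0 counts in the wild type and 27, 16, 18 and 16 in the knockout (0.0929 ± 0.0808 and 0.869 ± 0.183 CPM; log2 fold change 3.13, SE 0.449; edgeR adjusted p = 4.96e-06). Both genes were higher in every knockout library, yet neither exceeded 1.14 CPM in any library. Per kilobase the knockout levels of Col1a1 (0.130 ± 0.0229) and Col1a2 (0.163 ± 0.0342) differed by less than the larger SD. A ratio of the 2 chains was not tested because a wild-type library held 0 counts of Col1a2.

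**Figure D4:**
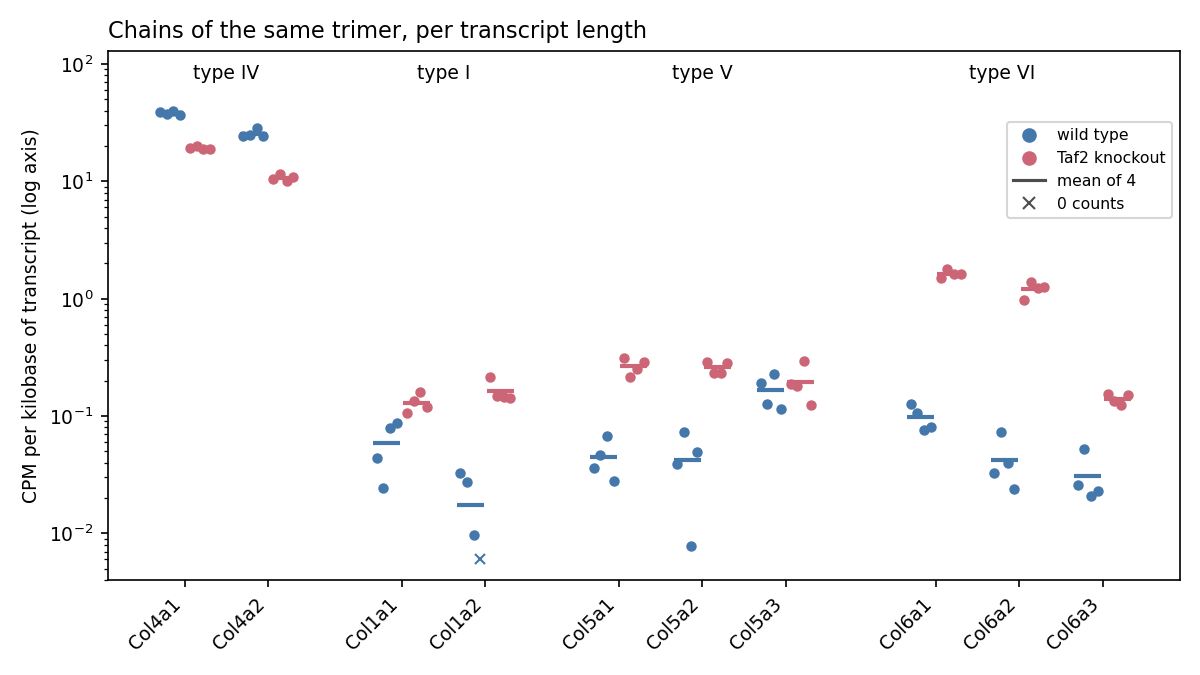
Level per kilobase of transcript, on a log axis, of the chains that share a trimer in types IV, I, V and VI (points, libraries; bars, means of 4; cross, 0 counts). Type IV chains were lower in the knockout and type I and VI chains higher, while Col5a3 overlapped between the genotypes beside the raised Col5a1 and Col5a2.

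Lesser fibrillar genes and the anchoring fibril gene also rose. Col27a1 was at 3.25, 4.52, 3.55 and 3.33 CPM in the wild type and 7.61, 5.99, 7.04 and 7.10 CPM in the knockout (log2 fold change 0.93, SE 0.116; edgeR adjusted p = 7.8e-07). Col11a2, known from cartilage, was at 1.21, 0.972, 0.887 and 0.937 CPM and 1.61, 1.70, 2.25 and 1.89 CPM (log2 fold change 0.88, SE 0.193; edgeR adjusted p = 0.000542). Neither gene overlapped between the genotypes. Col7a1, the chain of the anchoring fibrils under epithelia, went from between 0.347 and 0.887 CPM to between 1.04 and 1.40 CPM (log2 fold change 1.22, SE 0.271; edgeR adjusted p = 0.000623), and wild-type library 3, at 0.887 CPM, came nearest to the knockout. Unlike Col27a1 and Col11a2, Col7a1 passed the filter through the knockout libraries alone, where 85.8% of all such genes were higher.

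**Figure D5:**
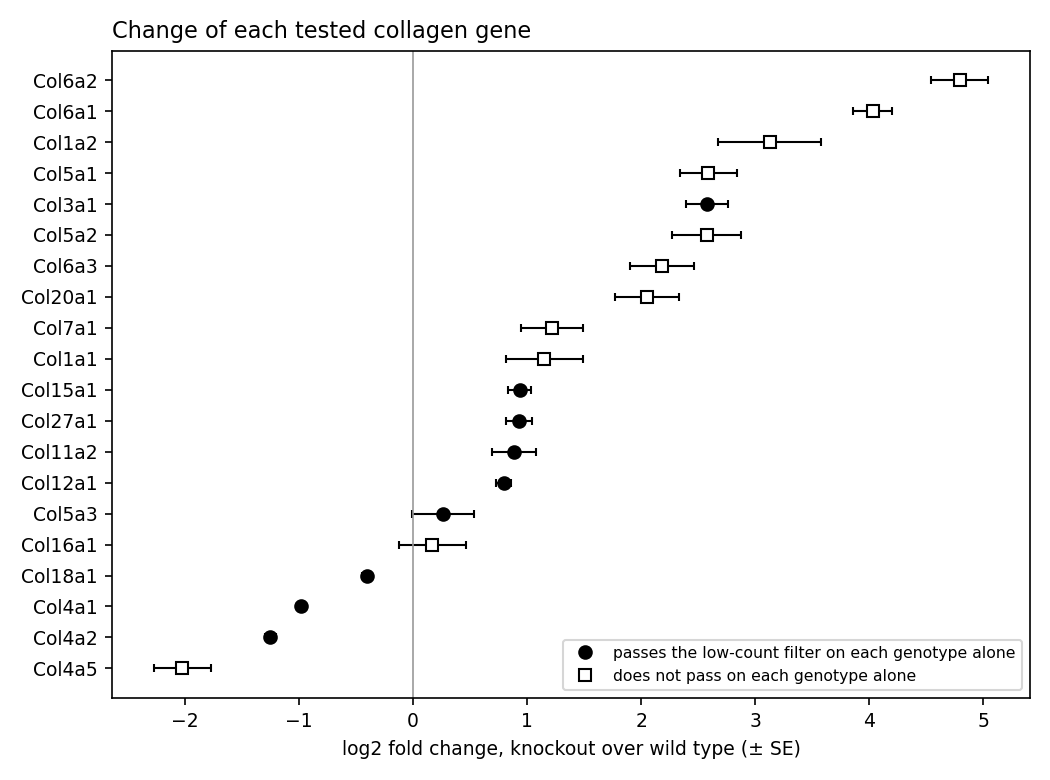
Log2 fold change, knockout over wild type, with its standard error for each of the 20 tested collagen genes (filled circles, 9 genes that pass the low-count filter on each genotype alone; open squares, the other 11). Errors smaller than the marker are hidden, as for Col4a1. Type VI genes Col6a2 and Col6a1 are at the top, at 4.79 and 4.03, and the 3 type IV genes at the bottom, from -0.98 to -2.02.

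Another 23 members did not pass the filter. Of these, 6 had 0 counts in all 8 libraries (Col4a3, Col6a4, Col6a5, Col9a1, Col10a1 and Col19a1), among them genes known from cartilage and kidney. The other 17 had at most 16 counts in any library and summed to 68 counts over the wild-type and 131 over the knockout libraries. The most counted were Col9a3, with 7 wild-type and 33 knockout counts in all, Col17a1, an epithelial transmembrane collagen, with 3 and 21, and Col22a1, with 30 and 20, of which 16 were in wild-type library 2. Tested with no filter, Col9a3, Col17a1 and Col13a1 (0 and 8 counts) were called higher and none of the 17 lower.

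Endothelial and macrophage markers mostly rose, as did most tested collagens of low abundance. Of those collagens, 9 passed the filter through the knockout libraries alone. Stellate cell markers moved in both directions, with more rising than falling, and among cholangiocyte markers more fell than rose. The part of other liver cells in the result was not tested. Over all tested genes 30.2% rose and 31.2% fell. In bulk samples more cells of a type and more RNA per cell cannot be told apart. Of 20 stellate cell and fibroblast markers 16 were tested, and 11 rose and 4 fell (median 1.90 on the log2 scale). Their summed level was 1314 to 1413 CPM in the wild type and 1145 to 1254 CPM in the knockout, most of it from Vim, which fell by 0.22 on the log2 scale. The stellate cell markers Pdgfrb (0.232 ± 0.116 to 1.25 ± 0.347 CPM), Lrat (0.755 ± 0.323 to 2.65 ± 0.654 CPM) and Rgs5 (0.709 ± 0.161 to 8.30 ± 0.495 CPM) rose, while Acta2, known to rise in activated stellate cells, fell from 5.99 ± 0.987 to 2.37 ± 0.451 CPM. Tagln (139 ± 9.56 to 27.5 ± 1.01 CPM) and Nt5e (42.3 ± 2.61 to 13.4 ± 0.669 CPM) also fell. No stellate marker was at 0 in all libraries, but Gfap was near 0 in both genotypes, at 0.0121 ± 0.0243 CPM in the wild type and 0 in the knockout. Endothelial markers rose in 17 of 18 cases and fell in 0 (joint level 83.4 to 93.0 CPM in the wild type, 205 to 211 CPM in the knockout), and macrophage markers rose in 16 of 17 and fell in 0 (187 to 214 and 377 to 407 CPM). None of these was at 0 in all libraries. Some tested markers had wild-type means below the filter's level of 0.472 CPM, such as Pdgfrb, Gpihbp1 (0.127 CPM) and Adgre1 (0.310 CPM). They passed through the knockout libraries alone, where 85.8% of all such genes were higher. Of 6 tested cholangiocyte markers 2 rose and 4 fell (144 to 160 and 175 to 203 CPM), and mesothelial markers were not tested, at 0.522 CPM or less in sum, with 3 of 6 at 0 in all libraries.

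Genes of the machinery that makes collagen are read beside all tested genes, of which 30.2% rose and 31.2% fell. Of 22 tested genes for procollagen folding and export 11 rose and 4 fell (median 0.096 on the log2 scale). P4ha2, a subunit of the prolyl hydroxylase that stabilises the triple helix, rose from 57.4 ± 4.76 to 162 ± 11.4 CPM (log2 fold change 1.50, SE 0.0547; edgeR adjusted p = 7.81e-15). Its partner subunit gene P4hb, also a disulphide isomerase, rose by 0.11 (SE 0.0339; edgeR adjusted p = 0.00845), and Colgalt1, which adds galactose to collagen hydroxylysine, fell from 226 ± 5.69 to 155 ± 10.8 CPM. Of 10 tested genes for procollagen cleavage, crosslinking and small fibril proteoglycans 7 rose and 2 fell (median 0.84). The transglutaminase gene Tgm2 was the most abundant and rose from 4214 ± 115 to 7252 ± 475 CPM. The proteoglycan gene Dcn rose by 2.94 (SE 0.0846), and the lysyl oxidase family gene Loxl4 fell from 123 ± 6.69 to 84.3 ± 1.80 CPM. Of the 7 that rose, Dcn, Lum and Bgn also stand in the stellate marker list above. In both lists some genes that rose had wild-type means below the filter's level of 0.472 CPM. These means went down to 0.123 CPM for folding and export and 0.0729 CPM for the other list. Such genes passed through the knockout libraries alone, where 85.8% of all genes passing this way were higher.

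Receptors and the TGF-β pathway, a main inducer of collagen genes, completed the comparison. Of 7 tested collagen receptor genes 3 rose and 2 fell (median 0.24), shares near the 30.2% and 31.2% of all tested genes. Itga2, an integrin chain that prefers fibrillar collagens, rose by 1.44 (SE 0.166), and Itga1, which prefers type IV collagen, fell from 24.8 ± 0.640 to 16.3 ± 0.942 CPM (log2 fold change -0.60, SE 0.0587; edgeR adjusted p = 2.39e-08). Their common partner Itgb1 was at 749.6 ± 22.9 and 730.3 ± 39.7 CPM (edgeR adjusted p = 0.428). Of 18 tested TGF-β pathway genes 11 rose and 2 fell (median 0.72). Some genes that rose had wild-type means below the filter's level of 0.472 CPM, down to 0.165 CPM among the receptors and 0.339 CPM in the pathway. Such genes passed through the knockout libraries alone, where 85.8% of all genes passing this way were higher. Ctgf, a known TGF-β target and the most abundant of the list, fell by 0.28 on the log2 scale (SE 0.0351).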

How the data were processed

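The authors deposited expected counts per gene, which the submitters' processing notes tie to RSEM and build mm10. The sources used here do not give RSEM's version, the aligner or the strand setting. Only the 8 columns named as a sample's library were read, and 8 others, which no label names, were left out. Expected counts were rounded, and all values of the collagen genes were whole (tolerance 0.005). Genes were kept with filterByExpr (minimum count 10, minimum total 15), scaled by TMM and tested with edgeR 4.0.16's quasi-likelihood test in R 4.3.3, knockout against wild type. The SE is taken from the fold change and its F statistic (size over square root of F). CPM uses TMM-scaled totals. CPM per kilobase divides by the longest GENCODE M21 transcript matched to the RefSeq transcripts of the table. Alternatives used DESeq2 1.42.0 and limma 3.58.1. Replicates differed beyond sampling noise (chi-square per degree of freedom 3.19 to 8.70). The fit was tested on simulated data. The members and lists were chosen with earlier results of these data known. All members could be named, and of each pathway list the most abundant gene and, per direction, that of lowest adjusted p; 1 such gene is not reported here. The markers named in the cell-type paragraph and the split by passing the filter were chosen after seeing values.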

Additional observations from a re-analysis of the deposited data

Results flagged for a closer look

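In 4 of 40 groups of 4 libraries of tested collagen genes, 1 library lay far from the other 3 (gap over range above Dixon's critical value), where chance gives about 1 in 20 groups. Col4a2 was at 184 CPM in wild-type library 3, above the others at 157 to 159 CPM, and Col15a1 was at 5.68 CPM in wild-type library 2. Col6a3 was at 0.534 CPM in wild-type library 2, on 11 counts, and Col1a2 at 1.14 CPM in knockout library 1, on 27 counts. All 4 genes stayed called, in the same direction, without that library.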

How the results depend on the processing

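Of 17 alternatives none reversed a called collagen gene. The counts of 14 higher and 4 lower members were the same under 3 other scalings, DESeq2, limma-voom, a replicate block and without each of the 8 libraries. With a minimum count of 50, 9 members were tested and 6 were higher and 3 lower, since 11 were no longer tested, and in the crosslinking list 4 genes rose. With no filter 17 members and 5 collagen receptor genes rose. Thinning to the smallest total left Col1a1 untested and 13 higher. Same-numbered libraries did not pair (correlations of -0.069 to 0.011). With the replicate block the counts over all genes were 3666 higher and 3771 lower, and the Col4a1 to Col4a2 difference was 0.27 (exact sign-flip permutation p = 0.125, the smallest possible with 4 pairs). Leaving out single libraries moved that difference between 0.23 and 0.30. No alternative was run for the Col1a1 to Col1a2 ratio, which has a 0. Members under 1 CPM rest on few counts, and their levels have wide errors.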
